A study of Mus musculus with 6 samples.

Results

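RNA-seq counts of 9 genes that mark monocytes and macrophages were examined in HOXA9-immortalized granulocyte-macrophage progenitors (iGMPs), mouse bone marrow cells of the C57Bl/6 strain. The genes were Emr1, which encodes the surface protein F4/80, together with Cd68, Mrc1, Maf, Lyz1, Lyz2, Cd36, Apoe and Mpeg1. They were found by symbol, all 9 of them, among the 34199 gene symbols of each library. Levels were compared across 3 groups of 2 libraries, all taken at 24 h. In CAF-1 OFF cells, IPTG at 500 µM drove a hairpin RNA that targets Chaf1b, whose product belongs to the CAF-1 histone chaperone, while estradiol at 150 ng/ml kept the HOXA9 fusion protein active. Control cells also received IPTG in medium with estradiol, and their labels do not name the hairpin or vector. In HOXA9 OFF cells, estradiol was washed out, and the labels do not say whether IPTG was present. In the paper, estradiol withdrawal leads these cells to become neutrophils, and Lyz1 is listed among granulocyte and monocyte genes. All cells carried HOXA9 fused to the hormone-binding part of the estrogen receptor and a lysozyme-driven GFP reporter, and the study worked with clonal lines. The clone behind each library is not given, so p-values measure only the spread between these samples, which may be technical.

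Granulocyte-macrophage progenitors give rise to both neutrophils and monocytes, and monocytes can mature further into macrophages. The transcription factors PU.1 and IRF8 act early in the monocyte branch, and the receptor for macrophage colony-stimulating factor, Csf1r, carries the signal on which monocytes and macrophages depend. F4/80 and macrosialin (Cd68) are the classical surface and lysosomal markers of mouse macrophages. Lysozyme and the pore-forming protein perforin-2 (Mpeg1) act against bacteria, the mannose receptor (Mrc1) and the scavenger receptor Cd36 take up ligands, apolipoprotein E carries lipid, and Maf is a transcription factor of mature macrophages.

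Libraries held 16773560 to 25170898 gene counts, so 3 counts, the level below which a gene was treated as not detectable, came to 0.119 to 0.179 CPM, which are counts scaled to a library size of 1000000. Intervals and floors of this kind cover counting error only. Chaf1b stood at 17.8 and 12.1 CPM with CAF-1 OFF, against 90.0 and 105 CPM in control, and at 64.6 and 61.4 CPM with HOXA9 OFF. It was 6.53-fold lower in CAF-1 OFF than in control, with an adjusted p of 0.0198 (edgeR's quasi-likelihood test), and the adjusted p was 0.0562 under a replicate block and 0.0505 to 0.115 without CAF-1 OFF library 2 or either control library. The estradiol switch acts on the fusion protein, so no transcript count checks it directly. Of 7 progenitor genes, 6 (Cd34, Flt3, Kit, Meis1, Myb and Sox4) were called lower in HOXA9 OFF than in control and Gata2 was not called, where 22.0% of all tested genes were called in either direction. The HOXA9 OFF libraries differed from each other in some macrophage genes, among them Maf and Lyz1, and several of these also differed between the control libraries in the same direction.

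**Figure D1:**
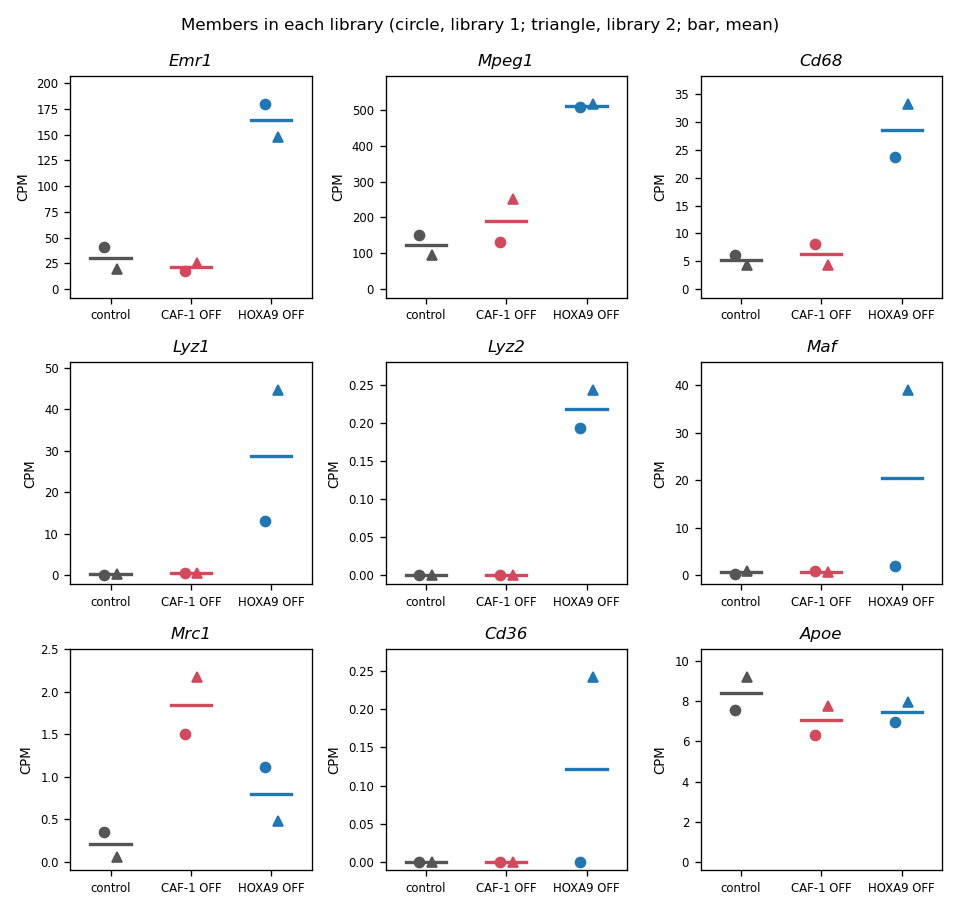
Level of each of the 9 genes in CPM on a linear axis with its own range, in control, CAF-1 OFF and HOXA9 OFF. Circles are library 1, triangles are library 2 and bars are the mean of the 2 libraries; Emr1, Mpeg1, Cd68 and Lyz1 were higher in both HOXA9 OFF libraries than in any other library, and the 2 HOXA9 OFF values of Maf were 1.93 and 39.0 CPM.

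The 9 genes spanned a wide range of levels in the control cells, which had received IPTG. Compared per kilobase of exon, which corrects for gene length, the order in control was Mpeg1 at 28.3, Emr1 at 9.29, Apoe at 4.25 and Cd68 at 4.11 CPM per kb. Lyz1 followed at 0.192, Maf at 0.0754 and Mrc1 at 0.0346 CPM per kb, and Lyz2 and Cd36 had no count in any control library. Apoe and Cd68 were not separated, since their single libraries ran from 3.83 to 4.66 and from 3.37 to 4.84 CPM per kb. Lyz1 and Maf also overlapped, at 0.0622 and 0.321 against 0.0381 and 0.113 CPM per kb, and so did Maf and Mrc1, whose 2 libraries read 0.0594 and 0.00976. In HOXA9 OFF the order was Mpeg1 at 118, Emr1 at 50.5, Lyz1 at 22.8, Cd68 at 22.7, Apoe at 3.76 and Maf at 2.49 CPM per kb, with Lyz2, Mrc1 and Cd36 at 0.166, 0.134 and 0.0309. The libraries of Lyz1 (10.3 and 35.3) spanned those of Cd68 (18.9 and 26.5), and the libraries of Maf (0.234 and 4.74) spanned those of Apoe (3.51 and 4.01). In CAF-1 OFF the order was that of control for the upper 2 genes, Mpeg1 at 43.9 and Emr1 at 6.52 CPM per kb, and then Cd68 at 4.94, Apoe at 3.56, Lyz1 at 0.406, Mrc1 at 0.310 and Maf at 0.0998. Cd68, at 6.45 and 3.42 CPM per kb, overlapped both Emr1 (5.28 and 7.76) and Apoe (3.20 and 3.91).

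A test needs counts in enough libraries, and 7 of the 9 genes passed this filter among 12460 genes in all. Lyz2 and Cd36 did not pass. On the mm9 assembly the tested genes outside the lysozyme locus are annotated as protein coding at chr17:57498109-57622952 (Emr1), chr11:69477715-69479655 (Cd68), chr2:14151041-14253684 (Mrc1), chr8:118206842-118231694 (Maf), chr7:20281458-20284515 (Apoe) and chr19:12535269-12539774 (Mpeg1). Lyz1 passed through HOXA9 OFF and was dropped when control and CAF-1 OFF libraries were filtered alone. Mrc1 passed through CAF-1 OFF and was dropped when control and HOXA9 OFF libraries were filtered alone. A gene was called when it changed at least 1.5-fold with an adjusted p (edgeR's quasi-likelihood test with Benjamini-Hochberg adjustment over all genes) under 0.05. With 2 libraries against 2, the smallest two-sided p of an exact permutation test on a single gene is 0.333, so the fit across all genes, which shares information on spread, was the main test. Other tools are named where their calls are given.

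Loss of HOXA9 activity was compared with control to ask how far this set of genes moves when iGMPs are released to differentiate. Emr1, Mpeg1, Cd68, Lyz1 and Maf were called higher in HOXA9 OFF, Mrc1 and Apoe were not called, and Lyz2 and Cd36 were untested. The count was thus 5 of 9, all in one direction, where 22.0% of all tested genes were called in either direction (1622 higher and 1118 lower). The median log2 fold change was 2.43 over the 7 tested genes and -0.0035 over all tested genes. Lyz1, 1 of the 5, passed the filter through HOXA9 OFF, where it was high. Mrc1, which enters the median, passed through CAF-1 OFF. In bulk RNA, more cells of one type and more RNA per cell cannot be told apart.

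Emr1 read 40.7 and 19.6 CPM in the control libraries and 180 and 148 CPM in the HOXA9 OFF libraries. Both HOXA9 OFF libraries lay far above both controls, and the groups did not overlap. The log2 fold change was 2.43 ± 0.35 (SE), or 5.40-fold, with an adjusted p of 0.00376 in edgeR's quasi-likelihood test. Mpeg1, the most abundant of the 9 per unit length, read 151 and 93.9 CPM in control and 507 and 517 CPM in HOXA9 OFF. Its HOXA9 OFF libraries differed by less than any other pair for this gene, and the rise was 4.17-fold (log2 2.06 ± 0.34, adjusted p = 0.00587 by edgeR). Cd68 read 6.09 and 4.24 CPM in control and 23.7 and 33.3 CPM in HOXA9 OFF. These groups did not overlap either, and the rise was 5.48-fold (log2 2.45 ± 0.35, adjusted p = 0.00386 by edgeR). Across all leave-one-out fits these 3 genes kept their calls against control, with log2 fold changes of 2.01 to 3.06 for Emr1, 1.76 to 2.44 for Mpeg1 and 2.20 to 2.74 for Cd68.

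Lyz1 and Lyz2 encode lysozyme C-1 and C-2 and lie next to each other on chromosome 10. On the mm9 assembly (NCBIM37) Lyz1 is annotated at chr10:116724852-116729924 and Lyz2 at chr10:116714390-116719377, both on the minus strand and each with 4 exons. Lyz1 read 0.0786 and 0.406 CPM in control, which is 2 and 7 reads, and 12.98 and 44.56 CPM in HOXA9 OFF, which is 269 and 735 reads. Both HOXA9 OFF libraries were above every other library, and library 2 was 3.43-fold above library 1. The fitted log2 fold change of 7.01 ± 0.85 (adjusted p = 0.00218 by edgeR) rests on the few control reads, and it ran from 5.85 to 8.40 when single libraries were left out. Lyz2 had no read in the control or CAF-1 OFF libraries and 4 reads in each HOXA9 OFF library, 0.193 and 0.243 CPM. The HOXA9 OFF mean of Lyz2 was 1.49 times a floor of 3 counts per control library. That ratio takes the 4 reads as exact, so it is not a lower bound. With no filter the log2 fold change was 5.14 ± 2.46 and was not called (adjusted p = 0.146 by edgeR's quasi-likelihood test). Within the same HOXA9 OFF libraries the paralogs averaged 28.8 ± 22.3 CPM for Lyz1 and 0.218 ± 0.0350 CPM for Lyz2 (SD, n = 2), and they are of nearly equal exon length.

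Reads that fit both paralogs could be lost from both counts, since the counting left out reads with several alignments. The tally of alignments that were not unique came to 89.6 to 107 per 100 gene counts, over the whole library and not for these genes. Of the 50-base windows in the annotated coding transcripts, 84.0% of those of Lyz1 and 84.6% of those of Lyz2 occurred in no other protein-coding gene, and these shares were 97.9% and 98.0% for 100-base windows. Adding the 2 genes together left the Lyz1 calls in place in both comparisons with HOXA9 OFF. The paper describes the reporter of these cells as driven by a lysozyme promoter, and the work it cites placed GFP into the lysozyme gene. The paper does not say which lysozyme gene that is. The count files have no row named for GFP, and whether the reporter bears on the Lyz2 count was not tested.

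The sequences before the start sites of the 2 lysozyme genes are shown because the genes are near copies whose counts differed, and that of Cd68 because it holds the most motif matches among the members. RefSeq promoter entries (GRCm38.p6) were found for 7 of the 9 genes, with 3 entries for Apoe, and none for Emr1 or Maf. Shown are the 250 bases before the annotated start, 5′ to 3′ on the gene's strand, at chr10:117292869-117293118 for Lyz1, chr10:117282273-117282522 for Lyz2 and chr11:69666171-69666420 for Cd68, all on the minus strand. Capitals mark matches, on either strand, to a PU.1 type site (GAGGAAGT), a C/EBP type site (TTGCNNAA), an AP-1 type site (TGANTCA) or a MAF type site (TGCTGA), and no matches overlapped.
Lyz1: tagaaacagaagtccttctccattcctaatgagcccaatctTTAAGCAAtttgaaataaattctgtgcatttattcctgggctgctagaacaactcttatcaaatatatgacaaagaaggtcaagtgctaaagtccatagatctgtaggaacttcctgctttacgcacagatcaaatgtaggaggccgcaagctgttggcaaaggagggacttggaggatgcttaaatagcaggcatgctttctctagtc
Lyz2: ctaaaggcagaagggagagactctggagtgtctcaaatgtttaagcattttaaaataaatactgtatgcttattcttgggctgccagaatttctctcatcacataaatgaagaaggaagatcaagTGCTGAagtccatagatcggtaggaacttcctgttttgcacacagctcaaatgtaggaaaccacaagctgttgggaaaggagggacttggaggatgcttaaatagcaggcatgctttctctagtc
Cd68: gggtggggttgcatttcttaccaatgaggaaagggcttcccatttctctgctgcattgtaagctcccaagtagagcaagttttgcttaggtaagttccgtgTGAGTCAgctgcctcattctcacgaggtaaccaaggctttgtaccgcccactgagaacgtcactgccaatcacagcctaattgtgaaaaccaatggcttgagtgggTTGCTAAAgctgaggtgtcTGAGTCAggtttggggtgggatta

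The Lyz1 and Lyz2 windows were identical at 205 of 260 aligned positions (78.8%). The Lyz1 window held 1 C/EBP type match that begins 209 bases before the start, and the Lyz2 window held 1 MAF type site that begins 125 bases before it. The Cd68 window held 2 AP-1 type matches, 149 and 24 bases before the start, and 1 C/EBP type match 43 bases before it. Of the other entries, the Cd36 window held 1 MAF type site, and those of Mpeg1, Mrc1 and Apoe held no match to these letters. Among all 32841 promoters in the table, 2.44% held the PU.1 type letters, 9.57% the C/EBP type, 6.75% the AP-1 type and 16.1% the MAF type site, so such matches are frequent and describe the sequence only.

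Maf, which encodes the transcription factor c-Maf, read 0.314 and 0.929 CPM in control, 1.93 CPM in HOXA9 OFF library 1 and 39.0 CPM in HOXA9 OFF library 2. Library 1 lay above the control libraries but far nearer to them than to library 2, and most of the group mean came from library 2, with 644 reads against 40. The log2 fold change against control was 5.10 ± 1.37 (adjusted p = 0.0318 by edgeR). Without HOXA9 OFF library 2 it was 1.68 with an adjusted p of 0.170, and the call was also lost without control library 1 (adjusted p = 0.139) or control library 2 (0.0991). Maf shares 440 bases of exon (5.34% of its exon length) with Gm15655, a transcript annotated on the opposite strand, and the strand setting of the counting is not given in the sources used here.

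Mrc1, Cd36 and Apoe made up the rest of the set in this comparison. Mrc1 read 0.354 and 0.0581 CPM in control and 1.11 and 0.485 CPM in HOXA9 OFF. The groups did not overlap, but these are 9 and 1 reads against 23 and 8, and the log2 fold change of 1.83 ± 0.77 was not called (adjusted p = 0.120 by edgeR). It was called when no filter was applied (0.0405), where 16.2% of genes were called, and it ran from 1.09 to 3.65 without single libraries. Cd36 had 4 reads in HOXA9 OFF library 2 and none in any other library, and no fold is given. Apoe read 7.58 and 9.23 CPM in control and 6.95 and 7.94 CPM in HOXA9 OFF. Its libraries overlapped, and the log2 fold change was -0.17 ± 0.22 (adjusted p = 0.598 by edgeR).

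**Figure D2:**
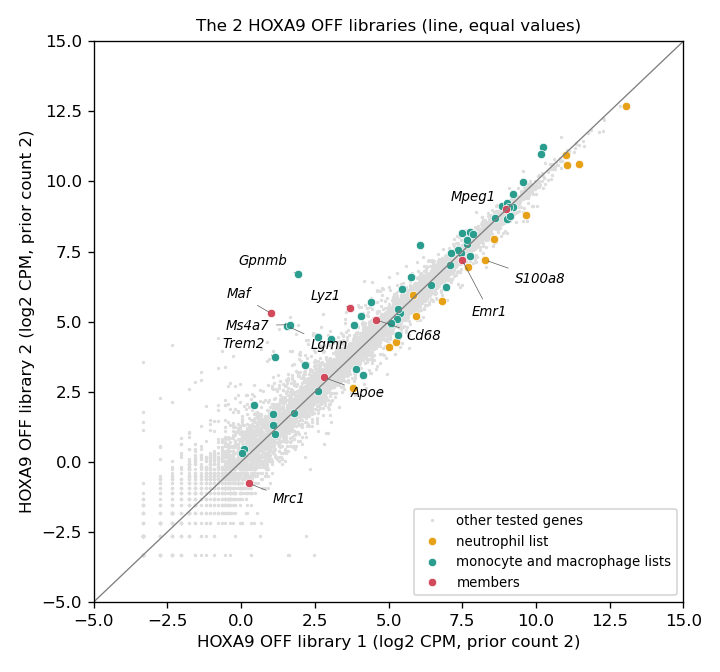
Log2 CPM (prior count of 2) of the 12460 tested genes in HOXA9 OFF library 1 (horizontal) and library 2 (vertical), with equal values on the line. Members are red, the monocyte and macrophage lists green and the neutrophil list orange; Maf, Gpnmb, Ms4a7, Lgmn and Trem2 lie above the line by 2.60 to 4.79 log2 units, while 13 of 14 neutrophil genes lie below it.

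The gap between the HOXA9 OFF libraries was examined gene by gene, because the call of Maf and the level of Lyz1 differed with it, while Lyz1 was called without either HOXA9 OFF library. Among the 11192 genes that passed the filter and had a mean of at least 1 CPM in HOXA9 OFF, 0.724% differed at least 4-fold between the 2 libraries, against 0.559% for the 2 control and 0.348% for the 2 CAF-1 OFF libraries. Ranked by the excess of library 2 over library 1, Maf was 14 of these 11192 and Lyz1 was 93, and genes that did not pass the filter have no rank. Ranked genes of the macrophage lists that exceeded 4-fold were Gpnmb (3.67 and 104 CPM), a lysosomal membrane glycoprotein, Lgmn (2.85 and 28.7 CPM), the lysosomal protease legumain, Ms4a7 (3.04 and 29.6 CPM) and Trem2 (2.12 and 13.4 CPM), a lipid-sensing receptor. Lgmn and Trem2, like C1qb and C1qc next, were chosen after their values were seen. C1qb and C1qc, chains of complement C1q that did not pass the filter, read 0.145 and 0.0482 CPM in library 1 and 17.6 and 6.00 CPM in library 2. The control libraries differed in the same direction for Maf, Lyz1, Trem2, Ms4a7 and Lgmn, by 1.31 (Maf) to 1.98 (Lgmn) log2 units, but not for Gpnmb (-0.226). Lgmn had 138 and 374 reads there, and the others had at most 16 in either library. Of the 14 neutrophil genes at this level, 13 were lower in library 2, for example S100a8 at 308 and 147 CPM, and only Mmp8 was higher, at 56.6 and 62.0 CPM. In control, 13 of the same 14 were also lower in library 2, with Lcn2 the exception. Emr1, Mpeg1, Cd68, Apoe and Mrc1 did not share the gap, with 148 against 180, 517 against 507, 33.3 against 23.7, 7.94 against 6.95 and 0.485 against 1.11 CPM in library 2 against library 1. The macrophage lists were not uniform, since 35 of 53 genes were higher in library 2 and 18 in library 1, and among regulators 3 of 10 were higher in library 2. Of the 20 surface and secreted protein genes, 13 were higher in library 2 and 7 in library 1. Emr4, Cx3cr1, Ly6c2, Fcgr4 and Itgam, named here for their direction, were lower in HOXA9 OFF library 2 by 0.35 to 1.01 log2 units. In control library 2 they were lower by 0.69 to 1.42. The part of these markers in the Maf and Lyz1 results was not tested.

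CAF-1 depletion was compared with control to ask whether the set moves when the histone chaperone is lost while HOXA9 stays active. Of the 9 genes, 0 were called with edgeR's quasi-likelihood test and 0 with DESeq2's Wald test, and 1 of the 7 tested genes, Mrc1, had an unadjusted p under 0.05. Over all genes this comparison called 0.0321%, or 4 of 12460, and 10.7% had an unadjusted p under 0.05. The median log2 fold change was 0.48 over the 7 tested genes and -0.0044 over all tested genes. A p-value that misses the threshold does not show that levels were alike.

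Mrc1, the mannose receptor of tissue macrophages, was the member with the largest difference. It read 1.51 and 2.18 CPM in CAF-1 OFF cells (29 and 43 reads) and 0.354 and 0.0581 CPM in control (9 and 1 reads). Both CAF-1 OFF libraries were above both control libraries and also above both HOXA9 OFF libraries. Mrc1 passed the filter through CAF-1 OFF, the group where it was high. The log2 fold change against control was 3.01 ± 0.74 (adjusted p = 0.259 by edgeR's quasi-likelihood test). Mrc1 was called with edgeR's exact test (adjusted p = 0.00140), which called 1.88% of genes, and when no filter was applied (0.00270), which called 1.90%, and its adjusted p was 0.0741 with DESeq2. Leaving out single libraries moved the log2 fold change from 2.37 to 4.84, and it was positive each time.

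The other members overlapped between CAF-1 OFF and control except for Lyz1. Lyz1 had 10 reads in each CAF-1 OFF library, 0.520 and 0.506 CPM, against 2 and 7 in control, and the log2 fold change was 1.22 ± 1.08 (adjusted p = 0.743 by edgeR), with 0.33 without control library 1 and 2.62 without control library 2. Mpeg1 read 130 and 251 CPM in CAF-1 OFF, and only library 2 was above both control values, 151 and 93.9 CPM. Its log2 fold change was 0.63 ± 0.33 (adjusted p = 0.555 by edgeR), and it was called when no filter was applied (0.0423). Emr1 read 17.1 and 25.2 CPM in CAF-1 OFF, with control library 2 between them and control library 1 above both. The log2 fold change of Emr1 was -0.52 ± 0.35 and turned to 0.12 without control library 1. Cd68 read 8.11 and 4.30 CPM, overlapping the control values of 6.09 and 4.24 CPM, and its log2 fold change of 0.25 ± 0.35 turned to -0.28 without CAF-1 OFF library 1. Maf read 0.935 and 0.709 CPM, and its log2 fold change of 0.48 ± 1.51 turned to -0.17 without control library 1. Apoe read 6.34 and 7.75 CPM, with a log2 fold change of -0.25 ± 0.22 (adjusted p = 0.744 by edgeR). Lyz2 and Cd36 had no read in CAF-1 OFF or control, and counts of 0 allow up to 0.119 to 0.179 CPM in these libraries.

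**Figure D3:**
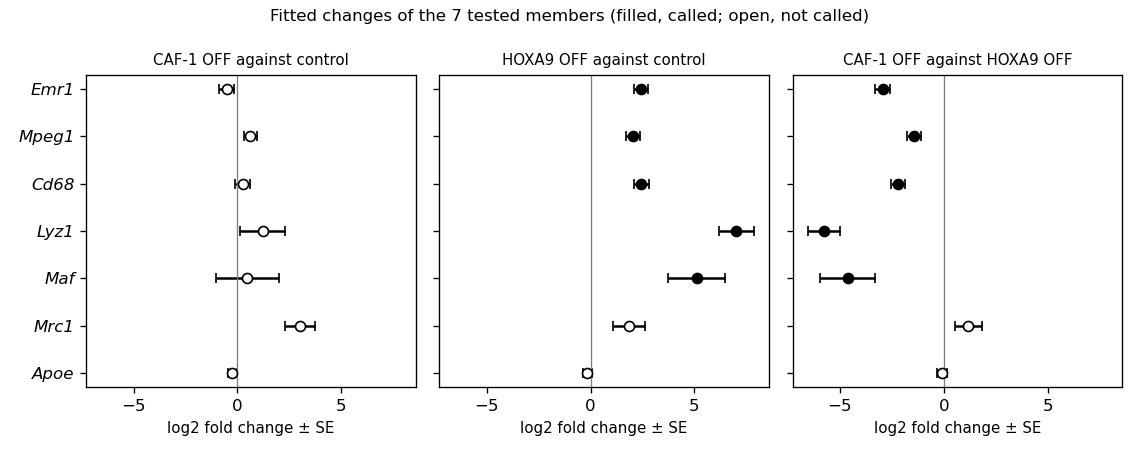
Log2 fold change ± SE of the 7 tested genes in the 3 comparisons, from 1 fit over 6 libraries. Filled points were called and open points were not; 5 genes were called in each comparison with HOXA9 OFF and 0 in CAF-1 OFF against control, where Mrc1 has the largest value at 3.01.

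CAF-1 OFF and HOXA9 OFF were also compared with each other, because both comparisons above share the control libraries. Emr1, Lyz1, Cd68, Maf and Mpeg1 were called in the direct comparison, each with the lower level in CAF-1 OFF, where 22.1% of all tested genes were called in either direction (1191 higher and 1564 lower, or 43.2% higher, against 52.5% higher when scaled by library size alone). Emr1 was 7.74-fold lower in CAF-1 OFF (log2 fold change -2.95 ± 0.36, adjusted p = 0.00237 by edgeR) and Lyz1 was 55.3-fold lower (-5.79 ± 0.77, 0.00305), with a log2 fold change of -4.65 without HOXA9 OFF library 2 and -6.41 without library 1. Cd68 was 4.60-fold lower (-2.20 ± 0.35, adjusted p = 0.00564 by edgeR), and for these 3 genes both CAF-1 OFF libraries were below both HOXA9 OFF libraries. Mpeg1 was 2.69-fold lower (-1.43 ± 0.33, adjusted p = 0.0198 by edgeR), and its adjusted p was 0.0617 without HOXA9 OFF library 1 and 0.0598 without library 2. Maf was lower by a log2 fold change of -4.62 ± 1.32 (adjusted p = 0.0389 by edgeR). This call was lost without HOXA9 OFF library 2 (-1.23, adjusted p = 0.294), without either CAF-1 OFF library (0.131 each), without control library 1 (0.0502), with a replicate block (0.0558) and in a fit of these 4 libraries alone (0.0522). Mrc1 was higher in both CAF-1 OFF libraries than in both HOXA9 OFF libraries, with a log2 fold change of 1.18 ± 0.65 that was not called (adjusted p = 0.211 by edgeR) and was 1.92 without HOXA9 OFF library 1. Apoe differed by -0.079 ± 0.23 on the log2 scale (adjusted p = 0.819 by edgeR), with a sign that changed without CAF-1 OFF library 1 or HOXA9 OFF library 2.

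The wider monocyte and macrophage program was read from 67 further genes in lists of regulators, surface and secreted proteins, and lysosome and lipid handling genes, of which 53 were tested. In HOXA9 OFF against control, 37 were called higher and 5 lower, where 22.0% of all genes were called in either direction. The median log2 fold change was 1.38 over the 53 and -0.0035 over all genes. Summed over the 67 genes, the level was 5234 and 5732 CPM in control, 5865 and 6022 CPM in CAF-1 OFF cells and 9921 and 13003 CPM in HOXA9 OFF. In CAF-1 OFF against control, 0 of the 53 were called with edgeR's quasi-likelihood test, 3 with DESeq2 and 3 with edgeR's exact test. These tests called 0.0321%, 1.54% and 1.88% of all genes. An unadjusted p under 0.05 was found for 7 of the 53 and for 10.7% of all tested genes. The median log2 fold change was 0.14 over the 53 and -0.0044 over all tested genes. In CAF-1 OFF against HOXA9 OFF, 29 were called lower and 4 higher, where 22.1% of all genes were called in either direction.

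Among the regulators, 7 of 10 tested genes were called higher in HOXA9 OFF than in control and 1 lower. Over all tested genes, 22.0% were called in either direction in that comparison. Sfpi1, which encodes PU.1, read 187 and 155 CPM in control, 220 and 185 CPM in CAF-1 OFF cells and 560 and 440 CPM in HOXA9 OFF. The HOXA9 OFF libraries stood apart from the other 4, 2.92-fold above control (log2 1.55 ± 0.17, adjusted p = 0.00162 by edgeR). Irf8 read 35.6 and 26.9 CPM in control and 178 and 175 CPM in HOXA9 OFF, and it was split in CAF-1 OFF at 32.9 and 86.0 CPM. Its rise in HOXA9 OFF was 5.63-fold (log2 2.49 ± 0.41, adjusted p = 0.00605 by edgeR). Klf4, a factor of monocyte differentiation, read 0.628 and 2.67 CPM in control, 0.883 and 0.709 CPM in CAF-1 OFF cells and 8.25 and 20.5 CPM in HOXA9 OFF. Its call (log2 3.17 ± 0.70, adjusted p = 0.0168 by edgeR) was lost without HOXA9 OFF library 2 (0.0714), and its fold change moved by more than 1.5 times without either control library. Irf5, a factor of inflammatory gene expression in macrophages, rose by a log2 fold change of 1.73 ± 0.20 (adjusted p = 0.00199 by edgeR), and the immediate early gene Egr1 was the one called lower. Pparg and Spic, transcription factors of specialised tissue macrophages, had no read in any library.

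Among surface and secreted proteins, 15 of 20 tested genes were called higher in HOXA9 OFF and 1, the chemokine receptor Ccr2, lower. The share called among all tested genes was 22.0% in either direction. Csf1r read 4.05 and 4.24 CPM in control, 4.78 and 7.14 CPM in CAF-1 OFF cells and 215 and 292 CPM in HOXA9 OFF. HOXA9 OFF libraries were thus 61.3-fold above control in the fit (log2 5.94 ± 0.26, adjusted p = 0.000103 by edgeR), a larger log2 change than that of Emr1, Mpeg1 or Cd68. Emr4, a relative of Emr1, rose by 5.36 ± 0.52 and Itgam, which encodes the CD11b integrin of monocytes, macrophages and neutrophils, by 4.49 ± 0.32 on the log2 scale (adjusted p = 0.00114 and 0.000475 by edgeR). The log2 fold change of Emr4 was 6.47 without control library 1. Ms4a7 rose by 6.17 ± 1.27 (adjusted p = 0.0127 by edgeR), a call lost without control library 1 (0.0691). Its log2 fold change was 3.73 without HOXA9 OFF library 2, and it had 2 and 7 reads in the control libraries. Ms4a7 and Trem2, like Lyz1, passed the filter through HOXA9 OFF, where they were high, and both stand among the called genes. Marco, Timd4 and Clec4f, markers of resident macrophages, had no read in any library.

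Lysosome and lipid handling genes gave 15 calls higher and 3 lower among 23 tested in HOXA9 OFF against control. Calls in either direction made up 22.0% of all tested genes. Ctss, the protease cathepsin S, read 0.707 and 1.63 CPM in control, 1.25 and 1.22 CPM in CAF-1 OFF cells and 43.6 and 71.4 CPM in HOXA9 OFF. The 2 HOXA9 OFF libraries were far above the other 4 (log2 fold change 5.68 ± 0.41, adjusted p = 0.000493 by edgeR, and 6.33 without control library 2). Lipa, the lysosomal acid lipase, rose by 2.07 ± 0.23 (adjusted p = 0.00169 by edgeR), while Fabp5, a fatty acid binding protein, fell by 1.95 ± 0.39 on the log2 scale (adjusted p = 0.0115 by edgeR), a call lost without control library 2 (0.0537), and its log2 fold change was -2.75 without HOXA9 OFF library 2. Gpnmb was called higher (5.38 ± 1.48, adjusted p = 0.0338 by edgeR), but without HOXA9 OFF library 2 the log2 fold change was 1.52 with an adjusted p of 0.0967, and leaving out either control library also ended the call (0.129 and 0.143).

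**Figure D4:**
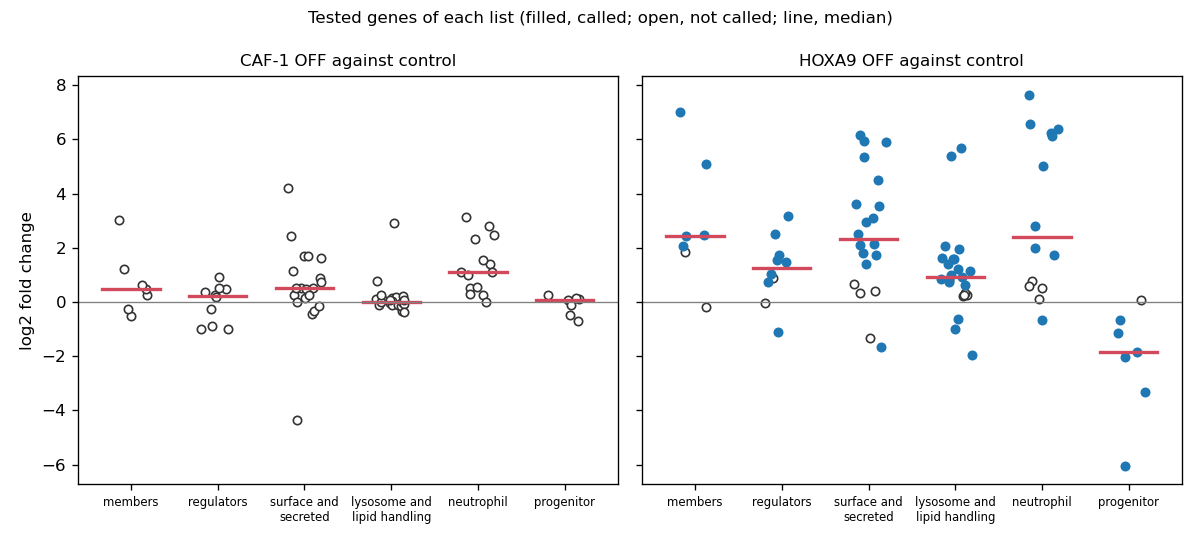
Log2 fold changes of the tested members and of the tested genes in 5 lists, for CAF-1 OFF against control (left) and HOXA9 OFF against control (right). Each point is 1 gene, filled where called, and lines are medians; members, macrophage and neutrophil lists have medians from 0.93 to 2.43 in HOXA9 OFF and the progenitor list has -1.86, while no listed gene was called in CAF-1 OFF.

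Some macrophage list genes differed between CAF-1 OFF and control without passing the main test. Ly6c2 is a surface protein of inflammatory monocytes, and the paper also uses it as a neutrophil marker. It read 102 and 150 CPM in the CAF-1 OFF libraries, 28.9 and 17.2 CPM in control and 122 and 74.6 CPM in HOXA9 OFF. Both CAF-1 OFF libraries were above both controls, by a log2 fold change of 2.44 ± 0.35 (adjusted p = 0.0976 by edgeR's quasi-likelihood test). Of the 14 tested neutrophil genes, 13 had positive log2 fold changes in this comparison, with a median of 1.11, and 8 had an unadjusted p under 0.05. Over all tested genes the median was -0.0044 and 10.7% had an unadjusted p under 0.05. Mmp8 had a log2 fold change of 3.12, S100a8 of 2.80 and Chi3l3 of 2.33, with adjusted p-values of 0.0757, 0.0976 and 0.195 by edgeR's quasi-likelihood test that miss the threshold. Their part in the Ly6c2 result was not tested. Vcam1, an adhesion molecule also found on macrophages, read 5.87 and 22.0 CPM in CAF-1 OFF against 0.668 and 0.871 CPM in control (log2 fold change 4.19, adjusted p = 0.142 by edgeR). Without CAF-1 OFF library 1 it was 4.84 and called (adjusted p = 0.0159 by edgeR), and without library 2 it was 2.95 and not called. With DESeq2, Ly6c2, Vcam1 and the Fc receptor gene Fcgr4 were called, and edgeR's exact test called Ly6c2, Vcam1 and Gpnmb. Gpnmb read 6.03 and 13.3 CPM in CAF-1 OFF and 1.37 and 1.16 CPM in control, with a log2 fold change of 2.91 (adjusted p = 0.534 by edgeR's quasi-likelihood test). Vcam1, Fcgr4, these 3 neutrophil genes and this value of Gpnmb were chosen after their values were seen.

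Genes whose pattern over the 6 libraries lay closest to each member were found by the root mean square difference of centred log2 CPM, among 9609 other genes with a mean of at least 5 CPM. Ly6c2 was nearest to Mrc1 at 0.41 log2 units, with 2 genes within 0.5. Ms4a7 was nearest to Maf at 0.62 and Ctss to Lyz1 at 0.50, and no gene lay within 0.5 of Maf. Fos was nearest to Cd68 at 0.12, Sorl1 to Mpeg1 at 0.14 and Apoc2 to Emr1 at 0.21, with 129, 332 and 58 genes within 0.5. E2f6 was nearest to Apoe at 0.053, but 8154 of the 9609 genes lay within 0.5 of Apoe, so its flat pattern was shared by most genes. These likenesses are descriptions over 6 libraries of 3 groups.

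Markers of other lineages were read in the same libraries. Of 15 neutrophil genes, 14 were tested, and 9 were called higher and 1 lower in HOXA9 OFF against control, with a median log2 fold change of 2.39. The share of all tested genes called in that comparison, 22.0% in either direction, is the background for each count of this kind below. Their summed level was 8829 to 11806 CPM in control libraries, 13412 to 14390 CPM in CAF-1 OFF cells and 12923 to 17614 CPM in HOXA9 OFF. The 7 progenitor genes summed to 3768 to 3899 CPM in control libraries, 3857 to 4233 CPM in CAF-1 OFF cells and 1417 to 1486 CPM in HOXA9 OFF. Of 10 megakaryocyte and erythroid genes, 7 were tested, and Gata1 and Itga2b were called higher and Car2 lower in HOXA9 OFF, with sums of 92.6 and 108 CPM in control, 183 and 112 CPM in CAF-1 OFF cells and 88.6 and 93.5 CPM in HOXA9 OFF. Of 6 mast cell and basophil genes, 5 were tested, with median log2 fold changes of 0.44 with CAF-1 OFF and 0.33 with HOXA9 OFF, and their sums were 207 and 167 CPM in control, 592 and 229 CPM in CAF-1 OFF cells and 245 and 308 CPM in HOXA9 OFF, so that CAF-1 OFF library 1 stood above the other 5. The 7 lymphoid genes, 4 of them tested, summed to 95.7 to 129 CPM in control and CAF-1 OFF and 6.08 to 8.85 CPM in HOXA9 OFF, with Cd3e and Cd3g at 0 throughout and Ebf1, a B cell factor, called lower. Dendritic genes were low, at 0.965 to 3.94 CPM summed over 6 genes, and only Ccr7 was tested, and called lower in HOXA9 OFF. Siglech, picked after its values were seen, did not pass the filter. It had 2 reads (0.0965 CPM) in HOXA9 OFF library 1 and 49 reads (2.97 CPM) in library 2. The part of these lineages in the members' results was not tested.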

How the data were processed

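RNA was extracted with RNeasy kits, made into libraries with a NEB kit and sequenced in 6 libraries. Per the submitters' processing notes, the authors used STAR for alignment to mm9 and HTSeq for counting, and the deposited values are raw read counts per gene symbol, not normalized. The annotation and strand setting of the counting are not given in the sources used here. Each file held 34199 symbols and 5 tally lines, which were left out. Reads with no gene came to 5.95 to 8.26 per 100 gene counts, and alignments tallied as not unique to 89.6 to 107.

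Groups and library numbers came from the sample titles. Genes were kept by filterByExpr by group (12460 genes), scaled by TMM (factors 0.954 to 1.03) and fitted over all 6 libraries with edgeR 4.0.16 in R 4.3.3 (glmQLFit, glmQLFTest, Benjamini-Hochberg over all genes). Calls needed 1.5-fold and an adjusted p under 0.05. CPM are TMM-scaled. Errors are standard errors of the log2 fold change. On simulated counts for HOXA9 OFF against control (12460 genes, 200 changed, 3 simulations), 64.7% of 2-fold and 86.7% of 4-fold changes were recovered with 3.81% false calls. The simulated spread followed its trend over level, not each gene's own, and changes were balanced up and down. The data called 2740 genes there, so these rates need not hold for the members.

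The members, lists and motifs were chosen with earlier results of these data known. Named were all 9 members, Chaf1b, the genes Csf1r, Irf8, Sfpi1 and Klf4, of each list the called genes with the 4 largest changes (mean of at least 5 CPM) and the nearest gene to each member, and list genes outside the 3 macrophage lists are given mostly as counts. Some listed genes are not reported here. Exon lengths and positions came from GENCODE vM1 (NCBIM37), and promoters from RefSeq (GRCm38.p6). Alternatives were DESeq2 1.42.0, edgeR's exact test, other scalings, filters and cutoffs, fits of the 4 libraries compared, a replicate block and leaving out each library.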

Additional observations from a re-analysis of the deposited data

How the results depend on the processing

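With 2 libraries a group, single libraries decide several values, and the low counts of Mrc1, Lyz1, Lyz2 and Cd36 limit what can be seen. Among alternatives of the members' fold changes, 277 kept direction and side of the threshold, 11 lost a call, 4 gained one and 5 changed sign, and for the other named genes these were 464, 20, 14 and 1. Library size alone, which shifted the median of all genes to -0.084 in HOXA9 OFF against control, left 50.4% of the calls higher, where TMM gave 59.2%. In CAF-1 OFF against HOXA9 OFF it shifted the median to 0.078 and left 52.5% higher, where TMM gave 43.2%.

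Against control, members called in CAF-1 OFF numbered 0, but 1 with edgeR's exact test and 2 with no filter. Members called between CAF-1 OFF and HOXA9 OFF fell from 5 to 3 at 2-fold and an adjusted p under 0.01, and ran from 3 to 5 when single libraries were left out (3 without HOXA9 OFF library 2, where Maf and Mpeg1 were lost). For HOXA9 OFF against control they ran from 4 to 5, and were 6 with no filter, which added Mrc1. All genes called between CAF-1 OFF and control numbered 4, and 192 with DESeq2, 228 with the exact test, 9 with 4 libraries, 378 with no filter, 0 at the stricter cutoff and 0 to 10 without single libraries. The stricter cutoff left 987 genes in HOXA9 OFF against control and 948 in CAF-1 OFF against HOXA9 OFF, where leaving out single libraries gave 1602 to 2840 and 1711 to 2718. Macrophage list calls were 22 and 18 at that cutoff, and in CAF-1 OFF against control 3 with DESeq2, 3 with the exact test, 7 with no filter and 0 to 1 without single libraries. The causes were not tested.

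Without single libraries, log2 fold changes in CAF-1 OFF against control ran from -0.94 to 0.12 for Emr1, from -0.28 to 0.66 for Cd68 and from -0.17 to 1.38 for Maf, with -1.73 to 0.35 for Klf4, and in CAF-1 OFF against HOXA9 OFF from -0.21 to 0.06 for Apoe.

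A replicate block by library number called 0 members and 2 genes between CAF-1 OFF and control, 5 and 2680 between HOXA9 OFF and control, and 4 and 2684 between CAF-1 OFF and HOXA9 OFF. Macrophage list calls under the block were 0, 41 and 33 in the same order. Deviations of same-numbered libraries correlated at -0.178, 0.456 and 0.0329 for control with CAF-1 OFF, control with HOXA9 OFF and CAF-1 OFF with HOXA9 OFF, and no source pairs them. A crossed replicate block, added after the data were seen, called 71 genes, 3 macrophage list genes and 0 members in CAF-1 OFF against control.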
